A study of Mus musculus with 2 samples.

Results

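The transcripts described here are those of Tnf and 8 genes of the NF-kB pathway, namely the feedback inhibitors Nfkbia and Tnfaip3, the nuclear IkB genes Nfkbiz and Bcl3, and the subunit genes Rela, Relb, Nfkb1 and Nfkb2. These 9 genes were taken by name from the 32285 genes of the count tables, and all 9 were found. They were measured in single alveolar macrophages (AMs) sorted from mouse lung, in 6185 of the 8485 barcodes of the control library and 7666 of the 9175 barcodes of the tumor library, which were those with at least 500 genes and at most 10% mitochondrial unique molecular identifiers (UMIs, which count captured transcripts). The mice were C57BL/6, labelled as 10 weeks after birth and described as wild type adult females. The tumor group had been implanted orthotopically, in the left lung, with Lewis lung carcinoma cells that express tdTomato, a tumor line of the same strain, and the control group had received vehicle. Lungs were digested with collagenase and dispase, and the sort took cells that were CD45+, autofluorescent, Siglec-F+ and F4/80+. There was 1 library in each group, and the number of mice behind each was not given in the sources used here. The study's methods also describe hashtags by which barcodes were traced to samples, but no hashtag counts entered the values given here, and the barcodes of a table were assigned to the group its label names. No test between the groups was therefore possible, cells are not replicates, and the library and the condition cannot be told apart. Intervals are 95% intervals that cover counting error only, and they are exact except for those of differences between 2 ratios, which are approximate.

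NF-kB dimers are held in the cytoplasm by IkB proteins until a receptor such as that for TNF activates the IkB kinase, which marks the inhibitor for degradation and frees the dimer to enter the nucleus. Among the genes then transcribed are Tnf itself and the genes of its own brakes: Nfkbia encodes IkB-alpha, which is rebuilt and carries NF-kB out of the nucleus, and Tnfaip3 encodes A20, a ubiquitin-editing enzyme that shuts down signalling from the receptor complex. Nfkbiz and Bcl3 encode atypical IkB proteins that act inside the nucleus on p50 or p52 dimers and can activate or repress target genes, so they were kept apart from both the activators and the inhibitors.

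The stretches next to the transcription start sites are shown for the members present in the reference, since kB motifs are known to lie in the promoters of NF-kB target genes. The start-site windows, 300 bases from 250 before to 50 after a start, were those of RefSeq on GRCm38.p6, in which 6 of the 9 genes were found with 9 windows in all. Letters of the kB consensus, searched on both strands and with overlapping matches allowed, were found in 6 of these 9 windows and in 4 of the 6 genes, and 8.46% of all 32851 windows of this length held them. These 6 windows are not independent, since 3 belong to Nfkb2 and 2 of those overlap and share a match. The matches of these 2 further Nfkb2 windows are not printed. For Tnf and Nfkbia the 250 bases before the start are printed, and for the others 30 bases around a match, with the matching letters in capitals. A match is a description of letters and not of a bound site.
Tnf, chr17:35202008-35202257, minus strand: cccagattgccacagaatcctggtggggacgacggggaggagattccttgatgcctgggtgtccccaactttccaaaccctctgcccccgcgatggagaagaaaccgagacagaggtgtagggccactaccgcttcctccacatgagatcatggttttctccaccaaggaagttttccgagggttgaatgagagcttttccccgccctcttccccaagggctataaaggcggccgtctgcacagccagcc
Nfkbia, chr12:55492648-55492897, minus strand: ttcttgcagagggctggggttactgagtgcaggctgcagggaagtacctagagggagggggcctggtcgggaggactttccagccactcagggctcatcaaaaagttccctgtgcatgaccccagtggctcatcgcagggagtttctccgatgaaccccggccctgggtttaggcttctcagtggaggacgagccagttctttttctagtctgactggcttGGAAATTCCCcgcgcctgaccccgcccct
Tnfaip3, chr10:19015516-19015545, minus strand: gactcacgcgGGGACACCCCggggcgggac
Tnfaip3, chr10:19015403-19015432, minus strand: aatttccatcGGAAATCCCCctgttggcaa
Nfkb2, chr19:46304688-46304717, plus strand: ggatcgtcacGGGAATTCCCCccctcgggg
Nfkb2, chr19:46304716-46304745, plus strand: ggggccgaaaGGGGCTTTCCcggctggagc
Bcl3, chr7:19822733-19822762, minus strand: cggcggcagGGGAAGTCCCgctgcccggcg
In Nfkbia the match began 29 bases before the start, and in Tnfaip3 the matches began 125 and 12 bases before it. The first Nfkb2 stretch holds 2 overlapping matches, which began 39 and 38 bases before the start, and the other holds 1 that began 11 bases before it. The Bcl3 match began at base 3 of the transcript. No match was found in the Tnf and Rela windows, which says only that these letters are not within them. A looser search found 2 matches in the Tnf window, 3 in the Rela window and at least 2 in each other window. It was not set beside a share of all windows. The first Tnfaip3 stretch lies in an intron of GENCODE transcripts that start further upstream, whereas the Nfkb2 and Bcl3 stretches lie within annotated exons.

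The kept barcodes held 64850143 UMIs in the control library, with a median of 10370 per cell, and 68801889 in the tumor library, with a median of 8264. Markers of AMs were present as labelled: all 10 listed genes, such as Marco, Siglecf and Pparg, were detected in both libraries, and 98.6% of control cells and 98.1% of tumor cells held at least 10 UMIs of them. Their summed level was 17220 UMIs per 1000000 UMIs of the library (CPM) in the control library and 14978 in the tumor library. Of other cell types, markers of fibroblasts summed to 0.740 CPM in the control library and 32.0 in the tumor library, and those of epithelium to 125 and 40.8 CPM. Endothelial markers summed to 33.8 and 32.6 CPM, and those of T or NK cells, B cells and dendritic cells to at most 7.17 CPM per list in each library. The part of these cells in the ratios was not tested. Those of interstitial or monocyte-derived macrophages summed to 15.7 CPM in the control library and 96.1 in the tumor library (7 of 7 genes detected in each), and those of neutrophils to 70.3 and 123 CPM (6 of 6 and 4 of 6 genes detected, with Ly6g and Retnlg at 0 in the tumor library). A list of 14 genes known to respond to tissue digestion, among them Fos, Junb and Hspa1a, summed to 5689 CPM in the control library and 8550 in the tumor library, and all 14 were detected in each. The deposited libraries shared 25 barcode sequences, of which 17 were among the kept cells of both, and leaving these out changed no direction of a member.

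Tnf (chr17:35199381-35202007, minus strand, 4 exons; GRCm38, GENCODE vM21), which encodes the cytokine itself, was slightly lower in AMs of tumor-bearing lungs. Control AMs held 5639 UMIs of it, or 87.0 CPM (84.7 to 89.3), and tumor AMs 5500 UMIs, or 79.9 CPM (77.8 to 82.1). On the log2 scale, tumor over control was -0.12 (-0.18 to -0.07), so the difference was beyond counting error but small. A higher ratio was found for 62.0% of the 9124 genes with at least 10 UMIs in both libraries and 5 CPM in the higher one. The log2 ratio of Tnf became 0.05 when the clusters of cells found mostly in the tumor library were left out of both. Tnf was spread unevenly over cells, as read from counts thinned to 3800 UMIs per cell. Their variance divided by the mean was 2.03 in control and 1.88 in tumor, beside a median over genes of 1.04 in each library. Before thinning, the 1% of control cells with most Tnf, 62 cells, held 14.2% of all its UMIs, with up to 58 in a single cell. The corresponding 77 tumor cells held 14.7%, with up to 32. These shares alone do not show unevenness, since Relb, which varied close to counting alone, had 14.0% and 15.7%.

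The feedback inhibitors were higher in the tumor library, Tnfaip3 more so than Nfkbia. Nfkbia (chr12:55489410-55492647, minus strand, 6 exons) was measured at 360.0 CPM (355 to 365) in control AMs and at 524 CPM (519 to 530) in tumor AMs, a 1.46-fold difference with a log2 ratio of 0.54 (0.52 to 0.57). Tnfaip3 (chr10:19000910-19015657, minus strand, 9 exons) was measured at 103 CPM (101 to 106) in control AMs and at 221 CPM (218 to 225) in tumor AMs, a 2.14-fold difference with a log2 ratio of 1.10 (1.06 to 1.14). The log2 ratio of Tnfaip3 exceeded that of Nfkbia by 0.55 (0.51 to 0.60), so the share of Nfkbia in the UMIs of the pair was 77.7% in the control library and 70.3% in the tumor library. The genes that respond to digestion were also higher in the tumor library, and their part in these differences was not tested.

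The nuclear IkB genes were those with the highest ratios beside Tnfaip3. Nfkbiz (chr16:55811375-55838899, minus strand, 14 exons), whose product IkB-zeta is needed for a set of secondary response genes such as Il6, was measured at 35.5 CPM (34.0 to 36.9) in control AMs and at 75.8 CPM (73.7 to 77.8) in the tumor library, with a log2 ratio of 1.10 (1.02 to 1.17). Bcl3 (chr7:19808462-19822770, minus strand, 9 exons), whose product binds p50 and p52 homodimers, had the lowest count of the 9 in the control library, with 475 UMIs or 7.32 CPM (6.68 to 8.01), and had 1349 UMIs or 19.6 CPM (18.6 to 20.7) in the tumor library. Its log2 ratio of 1.42 (1.27 to 1.57), or 2.68-fold, was the highest of the 9. Of the 2 annotated antisense genes that overlap Bcl3 on the other strand, Gm16174 had 79 UMIs in the deposited control library and 69 in the tumor library, and Gm16175 had 0 in each.

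The subunits among the members differed much less than the nuclear IkB genes. Nfkb1 (chr3:135584655-135691547, minus strand, 25 exons), which encodes the p105 precursor of p50, was measured at 160.2 CPM (157 to 163) in control AMs and at 204 CPM (200.3 to 207) in tumor AMs, with a log2 ratio of 0.35 (0.31 to 0.38). Nfkb2 (chr19:46304320-46312385, plus strand, 23 exons), which encodes the p100 precursor of p52 and is itself an inhibitor until processed, had 38.3 CPM (36.8 to 39.9) and 45.7 CPM (44.1 to 47.3), for a log2 ratio of 0.25 (0.18 to 0.33). Rela (chr19:5637483-5648130, plus strand, 11 exons), which encodes the transactivating p65 subunit, had 55.6 CPM (53.8 to 57.4) and 61.3 CPM (59.5 to 63.2), for a log2 ratio of 0.14 (0.08 to 0.21). Relb (chr7:19606217-19629438, minus strand, 11 exons), the partner of p52 in the alternative pathway, had 15.4 CPM (14.5 to 16.4) and 16.0 CPM (15.1 to 17.0). Its log2 ratio of 0.05 (-0.07 to 0.18) was within counting error, and it was -0.04 as a mean over the CPM of single cells.

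Summed over genes, the 4 activators had 269 CPM (265 to 274) in control AMs and 327 CPM (322 to 331) in tumor AMs, whereas the 2 inhibitors had 463 CPM (458 to 469) and 746 CPM (739 to 752). The log2 ratio was 0.28 (0.25 to 0.31) for the activators and 0.69 (0.67 to 0.71) for the inhibitors, a difference of 0.41 (0.37 to 0.44). Nfkb1 made up 59.4% of the activator UMIs in the control library and 62.3% in the tumor library, and the other 3 activators together had 109 and 123 CPM, a log2 ratio of 0.17 (0.12 to 0.22). There were 1.72 inhibitor UMIs for each activator UMI in the control library and 2.28 in the tumor library. Genes are captured with unequal efficiency, so only the change of this number between the libraries can be read, not its size. The excess of the inhibitor ratio over that of Tnf was 0.81 (0.75 to 0.86), and there were 18.8 Tnf UMIs for every 100 inhibitor UMIs in the control library and 10.7 in the tumor library.

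Of the 9 members, 3 were at least 1.5-fold higher in the tumor library (Bcl3, Tnfaip3 and Nfkbiz), beside 8.02% of the 12936 genes that reached 10 UMIs in both libraries. None of the 9 was at least 1.5-fold lower, beside 12.0% of those genes. Among the 9124 genes that also had at least 5 CPM in the higher library, which all 9 members did, 6.06% were that much higher and 5.55% that much lower. The median log2 ratio was 0.35 over the members and -0.07 over all 12936 genes. Among the 9124 genes, the share with a higher ratio was 2.07% for Bcl3, 2.81% for Tnfaip3 and 2.83% for Nfkbiz. It was 6.53% for Nfkbia and 10.9% for Nfkb1, but 36.4% for Relb.

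**Figure D1:**
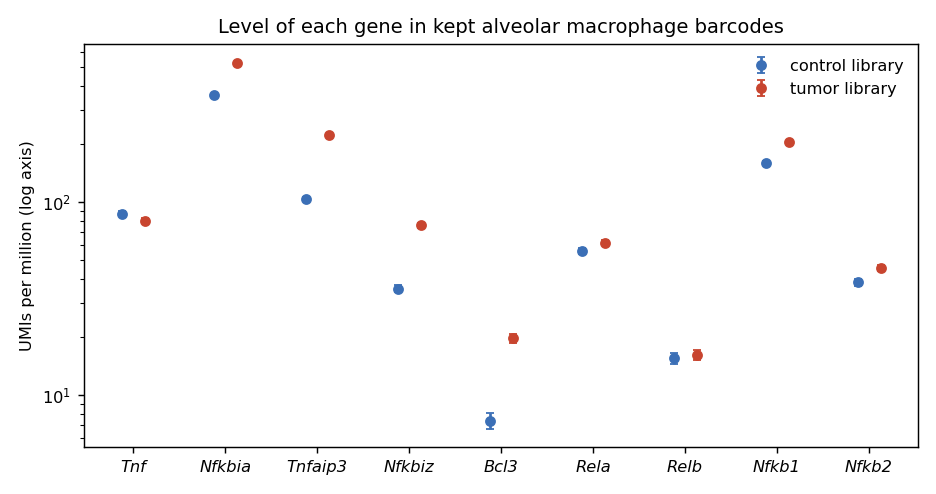
Level of each of the 9 genes in CPM (log axis) in kept barcodes of the control library (blue) and the tumor library (red), 1 library each, with exact 95% Poisson intervals that are mostly smaller than the points. Tnfaip3, Nfkbiz and Bcl3 lie far apart between the libraries, from 103 to 221, from 35.5 to 75.8 and from 7.32 to 19.6 CPM, while Tnf and Relb nearly coincide.

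The share of cells in which a member was detected was compared after thinning each cell to 3800 UMIs, which left out 595 shallower control cells and 729 shallower tumor cells. Tnfaip3 was detected in 28.5% (27.3 to 29.7) of 5590 thinned control cells and 48.4% (47.2 to 49.6) of 6937 thinned tumor cells, compared with 50.9% and 67.7% of cells before thinning. Nfkbia was detected in 59.5% (58.2 to 60.8) and 69.6% (68.5 to 70.6) of thinned cells, and in 78.7% and 82.9% before thinning. Nfkbiz was detected in 10.4% (9.59 to 11.2) and 19.8% (18.9 to 20.8), and in 21.1% and 32.8% before thinning. Bcl3 was detected in 2.88% (2.46 to 3.35) and 6.93% (6.35 to 7.56), and in 6.86% and 14.6% before thinning. These 4 genes were thus detected in more tumor cells at 3800 UMIs per cell. No share from RNA free in the suspension was measured for them, and its part was not tested. Low-depth barcodes led by fibroblast and endothelial genes (cluster K, below) had 359 CPM of Nfkbia in control and 1082 in tumor. For Nfkbiz they had 26.2 and 153 CPM.

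Tnf went the other way, with 23.1% (22.0 to 24.2) of thinned control cells and 20.7% (19.8 to 21.7) of thinned tumor cells, and 42.1% and 34.2% before thinning. Among thinned cells with Tnf, the mean was 1.49 UMIs in each library. For the activators the share was 43.7% and 50.3% for Nfkb1, 14.0% and 15.6% for Nfkb2, 19.6% and 22.5% for Rela, and 5.38% and 5.72% for Relb. Free RNA can put UMIs into cells that do not express a gene. The few cells led by lymphocyte and neutrophil genes (cluster N) held a Tnf UMI in 0 of 14 control cells, which allows a share of up to 23.2% (exact upper limit), and in 1 of 14 tumor cells, at median depths of 2873 and 5326 UMIs. Low-depth barcodes led by fibroblast and endothelial genes (cluster K) held one in 14.98% (10.6 to 20.3) of 227 control cells and 17.2% (12.3 to 23.2) of 203 tumor cells, at median depths of 2320 and 2332. Low-depth cluster F, led by Neat1, had no listed marker of another cell type among its leading genes. It held one in 29.0% (25.2 to 33.1) of 524 control cells and 17.3% (13.5 to 21.7) of 352 tumor cells, at median depths of 3290 and 2313.5. Except for the tumor cells of cluster N, these depths are below the 3800 UMIs to which AMs were thinned. Free Tnf RNA was thus not set apart from expression cell by cell, and its part was not tested.

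Across single cells, Tnf, Nfkbia, Nfkbiz and Tnfaip3 varied together, Nfkb1 varied with some of them to a lower degree, and the other 4 members showed little co-variation. Of these, Relb and Bcl3 had the lowest counts. Nfkb2 and Rela, however, had higher thinned means in control (0.152 and 0.216 UMIs per cell) than Nfkbiz (0.131). Cell-to-cell variation beyond counting was read from the variance divided by the mean of the thinned counts, which had a median of 1.04 in each library over all genes with a thinned mean between 0.05 and 3 UMIs per cell. That range held all members in both libraries except Bcl3 in control, with a mean of 0.0295. It was 2.03 in control cells and 1.88 in tumor cells for Tnf, 2.22 and 2.67 for Nfkbia, 1.45 and 1.79 for Nfkbiz, 1.39 and 1.72 for Tnfaip3, and 1.25 and 1.43 for Nfkb1. For Rela it was 0.989 and 0.9996, for Nfkb2 1.01 and 1.06, for Relb 1.03 and 1.04, and for Bcl3 1.02 and 1.05, close to counting alone.

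Pearson correlations were computed over the 5590 control and 6937 tumor cells on the logarithm of 1 plus the thinned count. They describe cells that share 1 library and its preparation, and counting noise in such sparse data lowers them. Tnf and Nfkbia had r = 0.23 in each library (0.235 in control and 0.228 in tumor). Tnf and Nfkbiz had 0.23 in control and 0.17 in tumor, and Tnf and Tnfaip3 had 0.12 and 0.17. The inhibitors had 0.19 with each other in control and 0.29 in tumor, and Nfkbia with Nfkbiz had 0.24 and 0.27. By contrast, Tnf with the 4 activators ranged from 0.003 to 0.07 in control and from -0.001 to 0.05 in tumor, and the activators among themselves had a median of 0.02 and 0.03. Of the 36 pairs, 7 reached 0.1 in control and 9 in tumor, and the medians over all pairs were 0.04 in each.

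Activators against inhibitors, the contrast of main interest, gave r = 0.12 in control and 0.19 in tumor for the summed UMIs of each group, and 0.12 and 0.16 when taken within clusters. Without Nfkb1, an alternative added after seeing the data, the remaining 3 activators gave 0.05 in control and 0.07 in tumor. Nfkb1 itself had 0.10 with Nfkbia and 0.11 with Tnfaip3 in control, and 0.16 and 0.14 in tumor. Rela, in contrast, had 0.01 with Nfkbia in each library. No pair of an activator and an inhibitor was clearly negative, as the lowest was -0.003 in control and 0.01 in tumor. Thus, cells with more inhibitor RNA did not hold less activator RNA. The correlation with the summed digestion-response genes was 0.13 for Tnf in each library, 0.08 and 0.12 for Nfkbia, and 0.12 and 0.18 for Tnfaip3, but at most 0.03 for the 4 activators. Its part in the co-variation was not tested.

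**Figure D2:**
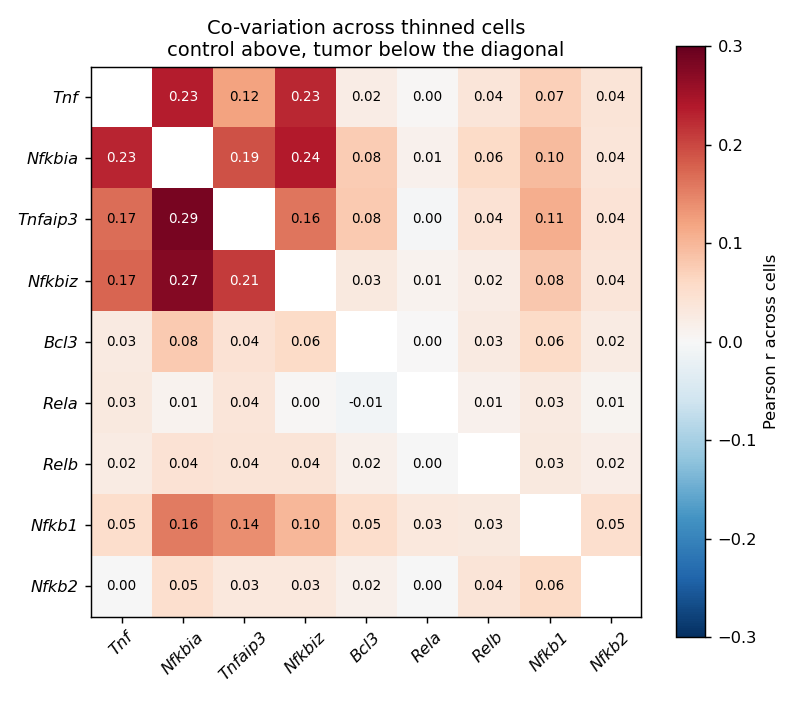
Pearson r between each pair of the 9 genes across cells thinned to 3800 UMIs, with the control library (5590 cells) above the diagonal and the tumor library (6937 cells) below it, and colour running from -0.3 to 0.3. Tnf, Nfkbia, Tnfaip3 and Nfkbiz form the dark block in the upper left corner, with values between 0.12 and 0.29, and Rela is pale throughout.

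The transcripts most like the members were named for each library as the 5 highest correlations among genes detected in at least 5% of thinned cells. For Tnf in control these were Cxcl2, a neutrophil-attracting chemokine (0.32), Nfkbia (0.23), Nfkbiz (0.23), Il1a, an interleukin-1 cytokine (0.17), and Ccrl2, an atypical chemokine receptor (0.13), among 6695 genes. In tumor they were Cxcl2 (0.23), Nfkbia (0.23), Nfkbiz (0.17), the immediate early gene Egr1 (0.17) and Tnfaip3 (0.17), among 6680 genes. Hence Nfkbia was in place 2 and Nfkbiz in place 3 for Tnf in each library, while Rela was in place 2774 in control and 409 in tumor. The median over all genes was below 0.001 in each.

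Cxcl2 was also the gene most like Nfkbia (0.44 in control and 0.41 in tumor), Nfkbiz (0.31 and 0.29) and Tnfaip3 (0.26 and 0.29). For Nfkbia the next were Nfkbiz, Tnf, Tnfaip3 and Il1a in control, and Tnfaip3, Nfkbiz, Cxcl1 and Il1b in tumor. For Nfkbiz they were Nfkbia, Tnf, Tnfaip3 and Il1a in control, and Nfkbia, Cxcl1, Tnfaip3 and Il1b in tumor. For Tnfaip3 they were Nfkbia, Nfkbiz, Junb and Il1b in control, and Nfkbia, Nfkbiz, the kinase Pim1 and Cd83 in tumor. Nfkb1 was closest to Cxcl2 (0.13), Tlr2 (0.12), Tnfaip3 (0.11), Zc3h12a (0.11) and Malt1 (0.10) in control, and to Rel, which encodes the c-Rel subunit (0.17), Il1b (0.16), Nfkbia (0.16), Fosl2 (0.15) and Pde4b (0.15) in tumor. For Nfkb2, Rela, Relb and Bcl3 the highest correlation was 0.08 (Cxcl2), 0.06 (Picalm), 0.07 (Cxcl2) and 0.09 (Cxcl2) in control and 0.08 (Kdm6b), 0.07 (Cidec), 0.05 (Clec4e) and 0.08 (Nfkbia) in tumor, and these low values in sparse counts are not read as likeness.

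The level of the inhibitors was then followed over cells grouped by their own thinned Tnf count. In control, Nfkbia was at 300.1 CPM (292 to 309) in 4298 cells without a Tnf UMI, 445 (424 to 468) in 938 cells with 1, 687 (639 to 738) in 291 cells with 2 or 3, and 1140.4 (1009 to 1284) in 63 cells with 4 or more. In tumor, it was at 453 CPM (444 to 462) in 5499 cells without Tnf, 688 (662 to 715) in 1007 cells with 1, 915 (866 to 966) in 371 cells with 2 or 3, and 1320.2 (1175 to 1478) in 60 cells with 4 or more. Nfkbia was therefore higher with each step of Tnf, and the libraries overlapped in their intervals only at the highest step.

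Tnfaip3 followed the same order, but the libraries stayed apart at each step. It was at 93.5, 119, 159 and 317 CPM in control, with 250 to 397 at the last step, and at 200.1, 288, 385 and 632 CPM in tumor, with 533 to 744 at the last step. Tumor cells without a Tnf UMI thus held more Tnfaip3 than control cells with 2 or 3 (137 to 184). Nfkbiz showed the steepest order, with 23.3, 52.7, 95.9 and 250.6 CPM in control and 61.4, 108, 166 and 320.2 in tumor. The summed activators were also higher with Tnf in control, at 267 CPM (259 to 275), 295, 342 and 447 CPM (366 to 540), a smaller step than that of the inhibitors. In tumor they were at 333 CPM (325 to 341), 379, 404 and 377 CPM (302 to 466), and the last interval overlapped with the first. Bcl3 in tumor was at 18.0, 25.1, 22.0 and 21.9 CPM, with overlapping intervals at the last 3 steps. The digestion-response genes were also higher with Tnf, from 5571 to 7627 CPM in control and from 8606 to 13478 in tumor, and their part was not tested.

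**Figure D3:**
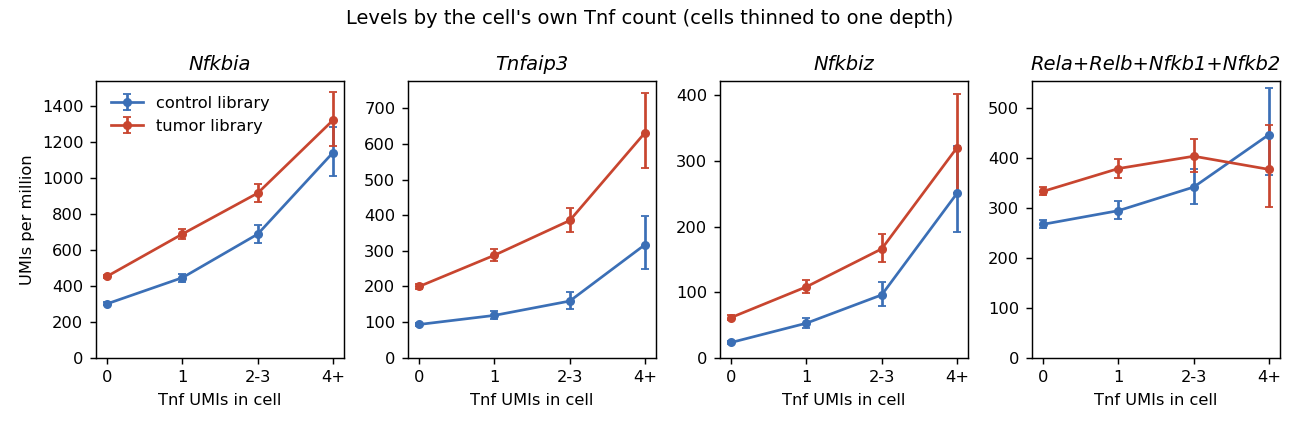
Level in CPM of Nfkbia, Tnfaip3, Nfkbiz and the 4 summed activators (one panel each, axes from 0) in cells grouped by their own Tnf count after thinning, for the control library (blue) and the tumor library (red), with exact 95% Poisson intervals. The inhibitors and Nfkbiz are higher at each step of Tnf in each library, for Nfkbia from 300.1 to 1140.4 CPM in control. The activators go from 267 to 447 CPM in control and show no steady order in tumor.

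Cells were grouped into clusters from variable genes that held none of the 9 members and none of the pathway genes below other than the digestion-response list, so the members did not shape the clusters. Clusters are called by letter, with the genes that lead them. Of the 14 clusters, 3 were low in depth or led by genes of other cells (F, K and N) and 1 had only 7 control cells (M), and the other 10 were compared between the libraries. Clusters B (led by Vps37b, F13a1 and Il1b), E (Apoe, C1qb and Hpse) and M (Ccl4 and Gadd45a) held 37.0% of tumor cells and 1.67% of control cells, and with 1 library per group these may mark the library as much as a cell state.

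The higher Tnfaip3 of the tumor library was seen within clusters that both libraries filled. In cluster A (Fabp1, Acaa1b and Cpne5; 2230 control and 1154 tumor cells) it was at 99.5 CPM (95.5 to 104) in control and 257 CPM (246 to 268) in tumor, a log2 ratio of 1.37 (1.28 to 1.46). In cluster C (Hspa1b, Hspa1a and Egr1) it was at 117 and 279 CPM, and in cluster I, led by cell cycle genes such as Top2a, at 90.7 and 207 CPM. Cluster G (Ear1, Txnip and Ear2) showed a smaller difference, with 60.6 CPM (53.3 to 68.7) in control and 74.7 CPM (66.5 to 83.6) in tumor, a log2 ratio of 0.30 (0.05 to 0.55). Its Nfkbia was lower in the tumor library, with 292 CPM (275 to 309) in control and 240.1 CPM (225 to 256) in tumor, whereas the ratio was above 0 in the other 9 clusters. Of the 10 clusters, G also had the lowest tumor level of each of the 9 members, though for Tnf, Nfkbiz, Bcl3, Rela and Relb its interval overlapped with that of at least 1 other cluster. In control the lowest Tnf, Nfkbia and Nfkbiz were in cluster L instead.

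Over the 10 clusters, the log2 ratio was above 0 in 10 for Tnfaip3 (0.10 to 1.37), in 10 for Nfkbiz (0.02 to 1.43), in 10 for Bcl3 (0.05 to 1.86) and in 9 for Nfkbia (-0.28 to 0.63). The interval lay above 0 in 8 clusters for Tnfaip3, 7 for Nfkbiz, 5 for Bcl3 and 8 for Nfkbia. In the tumor-enriched clusters B and E, with 63 and 33 control cells, the ratios of Tnfaip3, Nfkbiz and Bcl3 were within counting error. The ratio was above 0 in 8 clusters for Nfkb2 and for Rela, in 6 for Nfkb1 and in 5 for Relb, with intervals above 0 in 3, 2, 5 and 1. The interval of Nfkb1 lay below 0 in 1 cluster, B (-0.23, -0.45 to -0.01). For Tnf it was above 0 in 7 and ranged from -0.62 in cluster B to 0.63 in cluster L, with a median of 0.04 and intervals above 0 in 2 clusters and below 0 in 2. The digestion-response genes were higher in the tumor library in each of the 10, by 0.18 in cluster G to 0.92 in cluster L. If the tumor cells had filled the clusters as the control cells did, Tnfaip3 would have been at 223 CPM (in place of 221), Nfkbia at 508 (524), Nfkbiz at 64.9 (75.8) and Bcl3 at 18.9 (19.6), while Tnf would have been at 91.2 CPM in place of 79.9, above the 87.0 of control. If instead the control cells had filled the clusters as the tumor cells did, Tnfaip3 would have been at 145 CPM in place of 103, Nfkbia at 391 (360.0), Nfkbiz at 51.9 (35.5), Bcl3 at 12.7 (7.32) and Tnf at 82.8 (87.0). The levels of the 4 feedback and nuclear IkB genes were then nearer to those of the tumor library but still below them. These values have no interval. For clusters B, E and M, which held 37.0% of tumor cells, they rest on only 103 control cells.

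**Figure D4:**
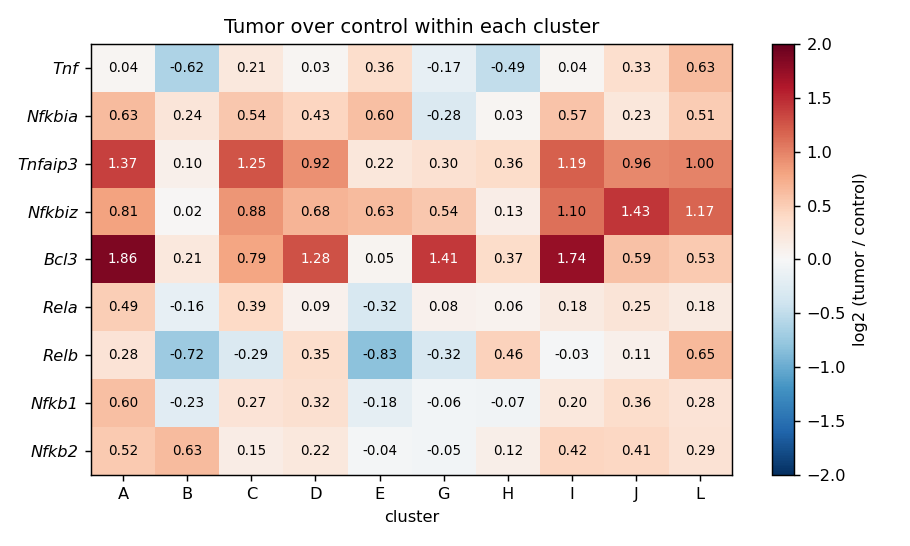
Log2 ratio of tumor over control for each of the 9 genes (rows) within the 10 clusters that both libraries filled (columns), with colour running from -2 to 2. Tnfaip3, Nfkbiz and Bcl3 are above 0 in each column, Nfkbia in each but G (-0.28), and Tnf is mixed, from -0.62 in B to 0.63 in L.

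The order of Tnf over clusters differed in part from that of its inhibitors. In control, Tnf was highest in cluster C (120 CPM, 112 to 129), followed by B, A, D, I, J and H with 74.9 to 96.6 CPM, where neighbours overlapped in their intervals (B also with C), and it was lowest in G, E and L (49.6 to 55.0 CPM), which overlapped with one another. The interval of E, with 17 UMIs, was wide (29.2 to 80.2 CPM) and also overlapped with those of B, H, I and J. In tumor, it was again highest in cluster C (138 CPM, 130.4 to 146), which stood apart from all but the small cluster J, followed by J, A, D, M, I and L (76.7 to 100.2 CPM), and it was lowest in E, B, H and G (48.9 to 64.2 CPM). Nfkbia in tumor was highest among the 10 in cluster B (576 CPM, 563 to 590), together with C (571 CPM, 555 to 587). The interval of D (548 CPM, 532 to 564) overlapped with both, and that of I (532 CPM, 504 to 560) with C. Thus the tumor-enriched cluster B paired high Nfkbia with low Tnf (62.8 CPM, 58.5 to 67.4), and cluster C was high in both. Tnfaip3 and the summed inhibitors in tumor were highest in C (279 and 849 CPM), where they overlapped with B. Like Tnf, they were lowest in G (74.7 and 315 CPM).

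Within the tumor library, the 2840 cells of clusters B, E and M were compared with the other 4826 cells. Tnf was at 64.8 CPM (61.8 to 67.9) in these clusters and 89.9 CPM (87.1 to 92.9) in the others, a log2 ratio of -0.47 (-0.56 to -0.39). Nfkbiz was at 94.0 and 63.7 CPM, and its log2 ratio was 0.56 (0.48 to 0.64), and Bcl3 at 22.0 and 18.0 CPM, with a ratio of 0.29 (0.13 to 0.44). The inhibitors hardly differed, with 774 and 727 CPM and a ratio of 0.09 (0.06 to 0.12), and the activators had 342 and 316 CPM and a ratio of 0.11 (0.07 to 0.15). None of the 9 was at least 1.5-fold higher in these clusters, beside 6.35% of 11729 genes, and none at least 1.5-fold lower, beside 10.5%.

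The rest of the pathway was described from lists of receptors and adaptors, kinases, further NF-kB and IkB proteins, further negative regulators and target genes. Of 16 receptors and adaptors that reached 10 UMIs in both libraries, 2 were at least 1.5-fold higher in tumor, with a median log2 ratio of 0.11, and of 10 kinases 1 was, with a median of 0.12. In such short lists these counts are near the 8.02% of all 12936 genes that were as much higher, and are not read as a result about the lists. The genes were Tnfrsf1b, the inducible TNF receptor (135 CPM in control and 236 in tumor), Irak2 (46.3 and 70.1 CPM) and the kinase Ikbke (4.38 and 10.5 CPM), named after their values were seen. The TNF receptor Tnfrsf1a was at 129 and 142 CPM and the IkB kinase subunit Ikbkb at 110.3 and 120.0 CPM, both also named after their values were seen.

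Of the 4 further NF-kB and IkB proteins 2 were at least 1.5-fold higher, and both were IkB genes. Nfkbid, which encodes the nuclear IkB-NS, was at 37.5 CPM in control and 105 in tumor, a log2 ratio of 1.48 (1.42 to 1.55). Nfkbie, which encodes the cytoplasmic IkB-epsilon, was at 13.5 and 28.5 CPM, a ratio of 1.08 (0.97 to 1.20). Nfkbib, the other classical IkB, was at 35.8 and 33.9 CPM (named after its values were seen). The subunit gene Rel, also added after its values were seen, was at 173.2 and 239.8 CPM. Its ratio of 0.47 (0.43 to 0.50) was above those of the subunits among the members. Of the 12 further negative regulators 4 were at least 1.5-fold higher, namely Tnip3, Irak3, Zfp36 and Tnip1 (named after their values were seen), with a median over the list of 0.37, where 8.02% of all genes were as much higher. None in these 4 lists was at least 1.5-fold lower, beside 12.0% of all genes.

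The target genes were the most shifted list, with 14 of 23 at least 1.5-fold higher and 1 lower, beside 8.02% and 12.0% of all genes, and a median log2 ratio of 0.95 beside -0.07 over all genes. Il1b was at 136 CPM in control and 687 in tumor, a log2 ratio of 2.34 (2.31 to 2.38), and Il6 at 3.1 and 26.5 CPM, a ratio of 3.09 (2.88 to 3.31). The chemokines Ccl4 and Cxcl1 had 32.6 and 98.1 CPM and 26.3 and 75.3 CPM, in control and tumor respectively. The survival gene Ier3 had 114 and 365 CPM, Gadd45b 88.3 and 243 CPM, and the activation marker Cd83 46.1 and 107 CPM. The gene that was lower was Bcl2a1d (177 and 118 CPM, named after its values were seen), which has near-identical copies whose reads may be shared. Tnf, itself a target, had a ratio of -0.12, which became 0.05 without the tumor-enriched clusters. In the digestion-response list 7 of 14 genes were at least 1.5-fold higher, with a median of 0.61, among them Hspa1a (111 and 260.3 CPM) and Hspa1b (106 and 311 CPM). The list shares Zfp36 and Dusp1 with the negative regulators, and its part in the ratios of the targets was not tested.

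**Figure D5:**
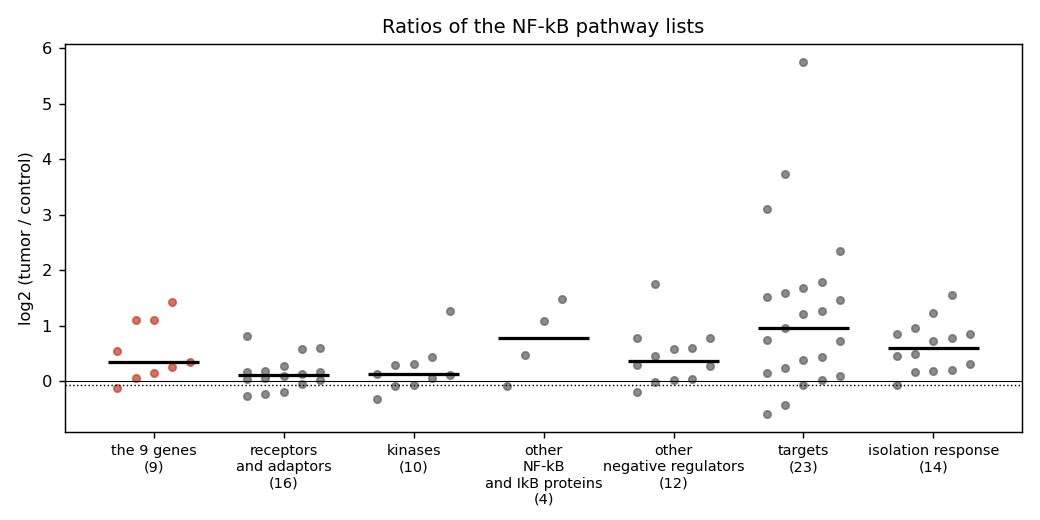
Log2 ratio of tumor over control (vertical axis) for the 9 genes (red) and for each gene of 6 lists that reached 10 UMIs in both libraries (grey, number of genes in brackets), with a black bar at each median and a dotted line at the median of all genes (-0.07). Target genes have the highest median (0.95) and the widest spread, while receptors and kinases lie close to 0 (0.11 and 0.12).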

How the data were processed

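The authors deposited 1 table of raw UMI counts per library (10x Genomics Chromium 3' kit), with genes in rows by Ensembl identifier and barcodes in columns. The submitters' processing notes name bcl2fastq 2.20, Cell Ranger 4.0.0 and mm10, whereas the study's methods name another Cell Ranger version. Symbols were matched for 32158 of 32285 genes, and 0 columns of other samples were left out. Depth was 64850143 and 68801889 UMIs in kept barcodes. Counts were summed over cells and given as CPM, with exact Poisson intervals, and ratios with exact conditional binomial intervals (differences of 2 ratios with approximate ones). The scripts were tested on simulated data. With 1 library per group no test was made.

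For shares and correlations each cell was thinned to 3800 UMIs. For clusters, 2000 variable genes without the members and pathway genes (the digestion-response list was kept in) were reduced to 100 components, aligned by mutual nearest neighbours (20 neighbours, kernel 7, chosen after looking at cluster sizes) and grouped by Leiden at resolution 1 (scanpy 1.11.5, leidenalg 0.10.2). Scrublet marked no doublets at its automatic threshold, so its calls were not used, and removal of the highest 6% of its scores was an alternative. The cutoffs of 500 genes and 10% mitochondrial UMIs were fixed limits. The study's methods instead set their limits by fitted mixtures of Gaussian distributions and removed doublets, so the kept cells are not those of the study, and clusters were rebuilt. Named genes were all 9 members, listed pathway genes at least 2-fold apart with 20 CPM or more in the higher library, and the 5 most correlated genes of each member, and genes named beyond this rule are marked. The members and lists were chosen with earlier results of these data known.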

Additional observations from a re-analysis of the deposited data

Results flagged for a closer look

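The filter removed 2300 barcodes of the control library with 2996945 UMIs and 1509 of the tumor library with 1936431 UMIs. They entered comparisons only in the alternative with no filter on barcodes. No share over all genes was computed for them, so the levels below are not read as a result about the members. Nfkbia was at 213 CPM in control and 359 in tumor, Tnfaip3 at 90.8 and 219 CPM, and Nfkbiz at 29.4 and 90.4 CPM. Bcl3 was at 8.34 and 35.1 CPM. Nfkb1 was at 302 and 579 CPM and Nfkb2 at 105 and 153 CPM, levels above those of the kept cells in each library, which were 160.2 and 204 CPM for Nfkb1 and 38.3 and 45.7 CPM for Nfkb2. Tnf was at 98.4 CPM (87.5 to 110.3) and 98.1 CPM (84.7 to 113.1).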

How the results depend on the processing

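Ratios here are log2 of tumor over control. Of the member and group ratios, that of Tnf alone changed direction while its own interval lay off 0: it was 0.047 without the tumor-enriched clusters, -0.053 when centred on the median gene and -0.22 without cluster C, which was led by heat shock genes. The Tnf ratio was -0.074 without the 1% of cells with the most member UMIs. Without the tumor-enriched clusters the sums gave 0.24 (activators), 0.66 (inhibitors) and 0.96 (nuclear IkB), and the median of the members 0.27. Centred on the median gene they gave 0.35, 0.75 and 1.22, and the median 0.41. Scaled without mitochondrial and ribosomal protein genes, activators were at 0.23, inhibitors at 0.64 and the median at 0.30, and the mean of each cell's own CPM put the inhibitors at 0.74. The number of members at least 1.5-fold higher was 3 to 4, the added one being Nfkbia. Not thinned, activators against inhibitors gave r = 0.19 in control and 0.23 in tumor, and Tnf against Nfkbia 0.29 in each. Without Nfkb1 the activators were at 0.17, and activators against inhibitors gave 0.054 in control and 0.072 in tumor. With all 4 activators and fewer UMIs per cell, thinned to 2000, these were 0.079 and 0.12, and Tnf against Nfkbia 0.16 and 0.19, and Spearman's rho for Tnf against Nfkbia in control was 0.19. Tumor-enriched over other clusters, the inhibitors were at 0.058 at resolution 0.5 and 0.057 without library correction, Tnf at -0.56 at resolution 0.5 and activators at 0.22 without correction. The causes of these shifts were not tested. Leaving out shared barcodes, cluster C or Nfkb1 was chosen after seeing the data. No paired analysis was possible because each group has 1 library. With 1 library per group, leaving out a replicate was not possible either, and depth limits Relb and Bcl3 most.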

Other observations

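Cells were also grouped by their own thinned Nfkbia count, at 0, 1, 2 to 3, and 4 or more UMIs. Tnf was at 54.2, 74.2, 109 and 235 CPM over these steps in control and at 41.1, 57.8, 95.5 and 155 CPM in tumor, and the intervals of the libraries overlapped at 2 to 3 Nfkbia UMIs (99.6 to 118 in control and 88.4 to 103 in tumor). The step of 4 or more is open, so Nfkbia itself need not be equal there. Tnfaip3 was at 73.6, 90.5, 126 and 207 CPM in control and at 138, 186, 243 and 397 CPM in tumor. Bcl3 was at 4.65, 7.17, 10.0 and 16.5 CPM in control and at 13.5, 17.1, 20.8 and 29.1 CPM in tumor, while Rela stayed between 53.0 and 61.8 CPM in control and between 63.3 and 69.8 in tumor. Low-depth cluster K of the tumor library, led by Dcn and Col3a1, had the highest Nfkbia of the clusters with at least 50 cells, at 1082 CPM against 359 in control.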
